A study of Mus musculus with 24 samples.

Results

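Ankrd1, Acta2, Tagln, Cnn1, Myl9, Tpm1, Tpm2, Vcl and Srf are actin-linked targets of the transcription factor SRF and of the co-activator YAP, with Srf itself among them. They are 9 of the 26995 gene symbols in the count tables and were chosen by name. Each was represented by the 3′UTR entry with the highest mean total count, and together they hold 36 of the 91830 entries. Ankrd1 was picked because its labelled reads showed one of the largest falls from day −2 to day 7 in DMSO. For that reason the change of all 9 genes between those DMSO days is given as a description with no test, and Ankrd1 has no test wherever a DMSO library of either day enters.

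The cells were 3T3-L1, a mouse embryonic fibroblast line that becomes adipocytes after hormonal induction. RNA was taken before induction at day −2 and after it at days 1, 3 and 7, from cells in DMSO (the vehicle) or in 0.5 µM ML-792, an inhibitor of the enzyme that activates SUMO. With 3 replicates lettered A, B and C in each of the 8 conditions there were 24 libraries, and when ML-792 was first added is stated, as day −2, for a viability assay of the same cells but not for these libraries. Before induction the cells were kept in medium with bovine calf serum and grown to confluence. Cultures of the later days were induced in medium with fetal bovine serum, dexamethasone, 3-isobutyl-1-methylxanthine and insulin. The medium was changed at day 3 to insulin maintenance medium. All cultures received 4-thiouridine at 100 µM for 45 min before lysis. A total read is any read counted at a 3′UTR entry. A labelled read is one with at least 1 T-to-C conversion, which is taken to mark RNA made during the labelling. The study's methods call the replicates biological, and neither they nor the labels say what libraries of the same letter share. Values called normalized counts are reads scaled by the library size and TMM factor of the total reads.

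SRF binds the CArG box, a short A/T-rich element, together with co-activators of the MRTF family. MRTFs are held in the cytoplasm by monomeric actin and enter the nucleus when actin is assembled into filaments. YAP and its relative TAZ bind DNA through TEAD factors and are active in spread, tense cells. Pre-adipocytes are spread fibroblasts with actin stress fibers, which are taken apart as the cells round up into adipocytes, so genes for filament and adhesion proteins are a common readout of this change.

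Promoters of 8 of the 9 genes were held in the RefSeq table of the GRCm38.p6 build, as windows of 300 bases running from 250 before to 50 after the gene start; Tagln was not in it. An exact CArG box was present in the windows of Myl9, Vcl and Srf, 3 of 8, against 1.63% of all 32851 promoter windows. With 1 mismatch allowed, Acta2 and Tpm1 were added, giving 5 of 8 against 21.1%. The 6-base TEAD motif GGAATG, searched on both strands, was present in the windows of Ankrd1, Acta2, Tpm1 and Vcl, 4 of 8 against 14.7%. Tpm2 and Cnn1 held neither in their windows, which says nothing of elements elsewhere. The stretches of 30 bases below are shown because they carry the motifs named here. They are written 5′ to 3′ on the strand of the gene, with the motif in capitals. The line of Srf holds a pair of CArG boxes, and the second line of Tpm1 holds a CArG box with 1 mismatch followed by a TEAD motif.
Srf, exact CArG boxes, chr17:46556215-46556244, minus strand: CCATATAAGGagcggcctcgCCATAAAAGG
Myl9, exact CArG box, chr2:156775293-156775322, plus strand: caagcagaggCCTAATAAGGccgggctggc
Vcl, exact CArG box, chr14:20929161-20929190, plus strand: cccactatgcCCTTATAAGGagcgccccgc
Acta2, CArG box with 1 mismatch, chr19:34255438-34255467, minus strand: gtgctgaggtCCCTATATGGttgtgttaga
Acta2, TEAD motif, chr19:34255502-34255531, minus strand: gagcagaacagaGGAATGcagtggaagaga
Tpm1, CArG box with 1 mismatch, chr9:67049415-67049444, minus strand: gctcgggtccCCATATATAGtcatatccac
Tpm1, both motifs, chr9:67049264-67049293, minus strand: CCAAAAAAGTattggctgtcctaaGGAATG
Ankrd1, upstream TEAD motif, chr19:36120037-36120066, minus strand: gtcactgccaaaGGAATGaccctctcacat
Ankrd1, downstream TEAD motif, chr19:36119950-36119979, minus strand: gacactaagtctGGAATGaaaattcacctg
These matches are letters in a window and were not tested for binding. The CArG boxes of Srf began 82 and 62 bases before the start, and the TEAD motifs of Ankrd1 began 210 and 123 bases before it.

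Library totals ran from 13554718 to 27013352 total reads and from 115709 to 820046 labelled reads. Labelled reads made up 2.68% to 3.68% of a library at day −2 and 0.802% to 1.36% at the later days. The summed normalized count of 7 adipocyte markers rose in DMSO from 22191–23708 at day −2 to 575311–633012 at day 7, and that of 7 fibroblast markers went from 481429–600653 to 37732–63320. At day 7 in ML-792 these sums were 791307–828725 and 73640–102786, both above the DMSO range. The sum of 6 smooth muscle markers (Myh11, Lmod1, Myocd, Des, Actg2 and Smtn) ran over the same DMSO days from 1115–2112 through 453–855 and 194–291 to 594–843. Myocd, the smooth muscle co-activator of SRF, had at most 6 reads in a library. The 6 skeletal and cardiac muscle markers summed to at most 6.20, the 3 endothelial markers (Pecam1, Cdh5 and Kdr) to at most 19.7. Of the 4 macrophage markers Ptprc was at 0 and Adgre1 had at most 5 reads, while Csf1r had up to 79 reads and Cd68 13.2 to 147 normalized counts.

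From day −2 to day 1 most of the actin-linked genes fell in both treatments. In total reads of DMSO cells, 6 of the 7 genes tested were lower at an adjusted p under 0.01, beside 7.81% of all entries. In ML-792 8 of 8 were lower, beside 10.7% of all entries. Ankrd1, 1 of these 8, passed the filter on low counts only through day −2, so its tests against day −2, here and below, could only come out lower. In both treatments the estimates for Tagln, Acta2 and Myl9, the contractile genes, lay between −4.04 and −5.07 on the log2 scale, while those of Tpm2, Vcl and Srf lay between −0.74 and −1.58. In bulk RNA, fewer cells that express a gene and less of its RNA per cell cannot be told apart. Serum, hormones and time in culture changed together between these days, and their separate parts were not tested.

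**Figure D1:**
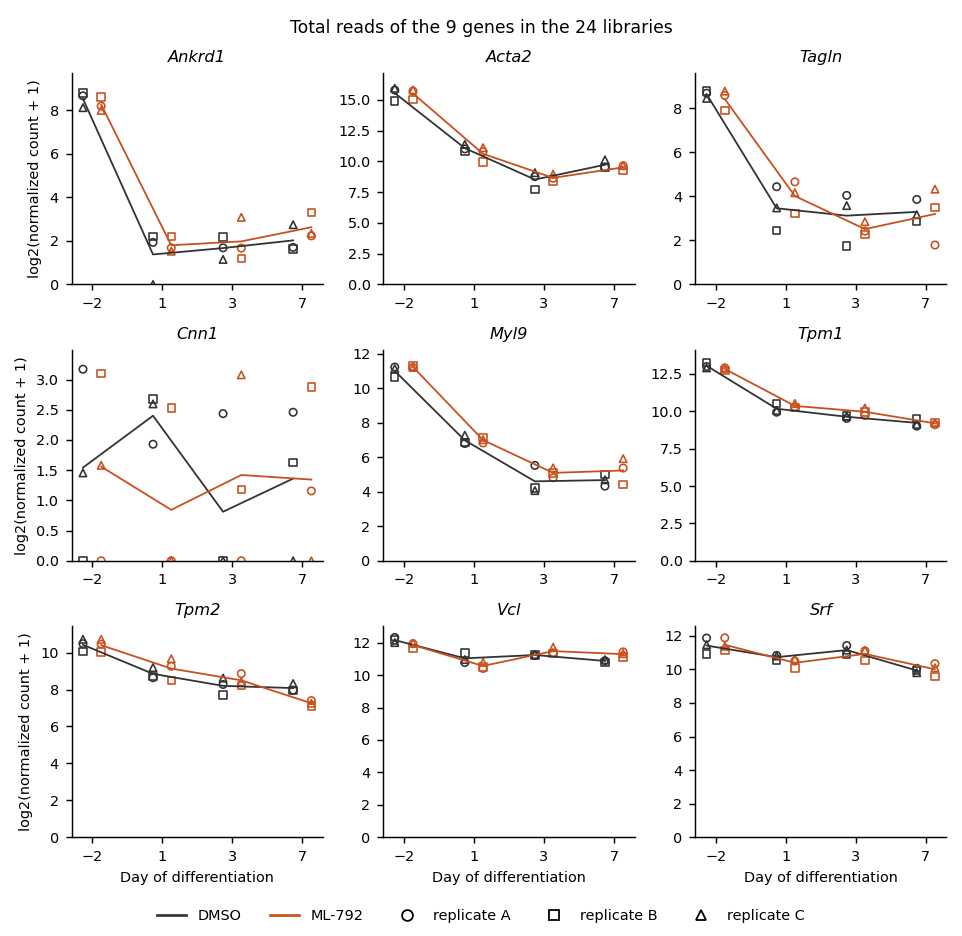
Total reads of the 9 genes in each of the 24 libraries, as log2 of the normalized count plus 1 (vertical axes, which differ between panels) by day of differentiation (horizontal axes). Points are libraries shaped by replicate letter, lines join the means of 3 libraries, DMSO is dark and ML-792 orange; Ankrd1 drops from 252–441 normalized counts at day −2 to at most 8.88 at every later day.

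Ankrd1 encodes an ankyrin repeat protein of the nucleus and sarcomere and is a standard YAP target. Its 3′UTR entry lies at chr19:36111965-36112706 (mm10, minus strand). In DMSO its normalized total counts were 401, 441 and 275 at day −2 in replicates A, B and C, and 2.81, 3.60 and 0 at day 1. At day 3 they were 2.21, 3.53 and 1.22, and at day 7 they were 2.25, 2.08 and 5.69. The day −2 libraries were all far above every later one, and the later days overlapped. In ML-792 the counts were 289, 385 and 252 at day −2 and 2.20, 3.58 and 1.88 at day 1, a log2 change of −6.88 (SE 0.48, adjusted p = 2.07e-07, edgeR's quasi-likelihood test). The DMSO change to day 1 was −7.40 on the log2 scale, with no test. At days 3 and 7 the ML-792 libraries stayed at 1.27 to 8.88.

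Labelled reads of Ankrd1 went from 88, 69 and 61 at day −2 in DMSO to 0 in all 3 libraries at day 1. Against a floor of 3 reads over the group, this was at least 69.3-fold lower, a bound that covers counting error only. In ML-792 they went from 50, 83 and 51 to 0, at least 41.9-fold lower (adjusted p = 1.23e-08). The entry passed the filter on low counts only through day −2, so this test could only come out lower. Over the 18 libraries of days 1, 3 and 7, Ankrd1 had 2 labelled reads in all, 1 in DMSO at day 3 and 1 in ML-792 at day 7.

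Acta2 encodes smooth muscle alpha-actin, the actin of contractile stress fibers in fibroblasts, with its entry at chr19:34240336-34241666 (minus strand). Its normalized total counts in DMSO were 56378, 30803 and 62150 at day −2 and 2057, 1804 and 2652 at day 1. In ML-792 they were 53291, 33617 and 56829 at day −2 and 1751, 984 and 2199 at day 1. Replicate B was the lowest at both days in both treatments, and the 2 days did not overlap. The mean fell from 49777 ± 16684 to 2171 ± 435 in DMSO (SD, n = 3), a log2 change of −4.52 (SE 0.36, adjusted p = 4.37e-07), and by 4.86 on the log2 scale in ML-792 (SE 0.32, adjusted p = 1.35e-07).

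Tagln, which encodes the actin-bundling protein transgelin (chr9:45929628-45930370, minus strand), was at 408, 436 and 346 normalized counts at day −2 in DMSO. It was at 20.6, 4.50 and 10.1 at day 1, with no overlap between the days. The log2 change was −5.07 (SE 0.50) in DMSO and −4.39 (SE 0.46) in ML-792, with adjusted p of 2.78e-06 and 8.96e-06. Myl9, the regulatory light chain of non-muscle and smooth muscle myosin (chr2:156781163-156781657, plus strand), had 2412, 1603 and 2264 normalized counts at day −2 and 110, 116 and 155 at day 1 in DMSO. Its 3 libraries at day 1 lay close together, and its log2 change was −4.04 (SE 0.31) in DMSO and −4.25 (SE 0.26) in ML-792. Cnn1, the actin-binding protein calponin 1 (chr9:22108232-22108728, plus strand), had 0 to 11 total reads in a library, 68 over all 24 libraries and 1 labelled read. It was below the filter on low counts and was not tested, so a change in Cnn1 was not detectable at this depth.

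Tropomyosins are rod proteins that wind along actin filaments and set which motors and binding proteins reach them. Tpm1 (chr9:67022590-67024565, minus strand) had 8128, 9703 and 7657 normalized counts at day −2 in DMSO and 981, 1452 and 1068 at day 1. The days did not overlap, and the log2 change was −2.86 (SE 0.20, adjusted p = 1.41e-07), with −2.47 (SE 0.16) in ML-792. Tpm2 (chr4:43513726-43515920, minus strand) had 1434, 1070 and 1694 at day −2 and 399, 421 and 584 at day 1 in DMSO. The smaller fall of Tpm2 was −1.58 (SE 0.25, adjusted p = 0.000255) in DMSO and −1.21 (SE 0.27, adjusted p = 0.00346) in ML-792. Without replicate A, the adjusted p of Tpm2 was 0.0349 in DMSO and 0.072 in ML-792, and without replicate C it was 0.0232 in ML-792.

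Vcl encodes vinculin, which ties actin filaments to integrin adhesions. Its entry lies at chr14:21031734-21033676 (plus strand). In DMSO its normalized counts were 5162, 4595 and 4149 at day −2 and 1764, 2665 and 2003 at day 1, again without overlap. It changed by −1.11 on the log2 scale in DMSO (SE 0.17, adjusted p = 0.00023) and by −1.29 in ML-792 (SE 0.16, adjusted p = 4.59e-05). The DMSO call was lost without replicate A (adjusted p = 0.0582) and without replicate C (0.013), and the ML-792 call without replicate A (0.0122).

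Srf itself (chr17:46546838-46549082, minus strand) had 3752, 1949 and 2846 normalized counts at day −2 in DMSO and 1831, 1503 and 1786 at day 1. All 3 day 1 libraries were below the lowest at day −2, yet the log2 change of −0.74 (SE 0.22) missed the threshold in edgeR's quasi-likelihood test (adjusted p = 0.023). With the replicate letter as a block the adjusted p was 0.00155. In ML-792 Srf went from 3784, 2259 and 2674 to 1448, 1077 and 1574, a log2 change of −1.09 (SE 0.25, adjusted p = 0.00403). That call was lost without replicate A (0.0851) and without replicate C (0.0411). Over all the genes, leaving out replicate A reduced the number called lower from 6 to 4 in DMSO and from 8 to 5 in ML-792, while Acta2, Myl9, Tagln and Tpm1 remained called in every such fit.

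**Figure D2:**
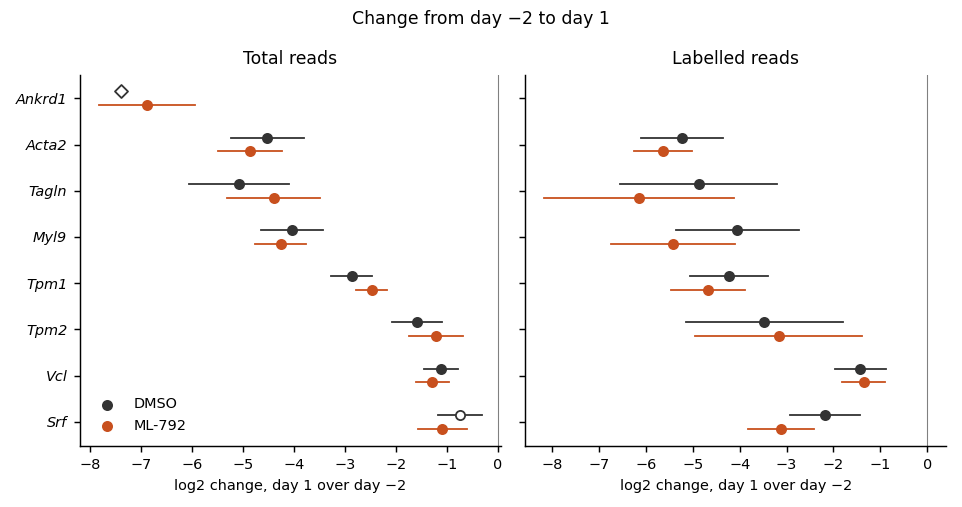
Log2 change from day −2 to day 1 (horizontal axes) in total reads (left) and labelled reads (right) for 8 genes, DMSO dark and ML-792 orange. Bars are approximate 95% intervals, filled points passed an adjusted p of 0.01, the open circle (Srf, DMSO, −0.74) did not, and the open diamond (Ankrd1, DMSO, −7.40) was not tested; Ankrd1 is left out on the right because it had 0 labelled reads at day 1.

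In labelled reads the genes were lower at day 1 as well. In DMSO 7 of 7 genes tested were called lower, beside 17.9% of all entries, and in ML-792 8 of 8, beside 24.2%. In labelled reads Ankrd1, Tagln, Myl9 and Tpm2 passed the filter on low counts only through day −2. Their tests against day −2, here and at the later days, could therefore only come out lower. The median log2 change of all 10589 labelled entries was −1.23 in DMSO and −1.35 in ML-792, and each member's value is to be read against it. In DMSO the log2 changes were −5.23 for Acta2 (SE 0.44), −4.87 for Tagln (SE 0.85), −4.22 for Tpm1 (SE 0.43) and −4.05 for Myl9 (SE 0.67). They were −3.48 for Tpm2 (SE 0.85), −2.19 for Srf (SE 0.38) and −1.42 for Vcl (SE 0.28). Whether the labelled reads of Vcl all mark new RNA was not tested, and its labelled share, given below, stayed high at every day. When labelled reads were scaled by their own totals instead, Acta2, Myl9, Tagln and Tpm1 were still called lower in DMSO and Srf, Tpm2 and Vcl were not. Under that scaling 6 genes were called in ML-792, without Tpm2 and Vcl. The labelled calls on Tpm2 were lost without replicate A (adjusted p = 0.0442 in DMSO and 0.0304 in ML-792) and without replicate C (0.0161 and 0.103), and that on Vcl in DMSO without replicate A (0.0344).

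Acta2 shows how far labelled reads went down. In DMSO it had 7098, 2628 and 6498 labelled reads at day −2 and 111, 138 and 161 at day 1. Every library at day −2 held more than every later one. Tpm1 went from 721, 491 and 554 labelled reads to 25, 39 and 25, and Myl9 from 152, 48 and 94 to 9, 7 and 0. Srf went from 673, 290 and 442 to 107, 52 and 133, and its lowest count in any library was 12, at day 7 in ML-792. Over the 18 later libraries, labelled reads summed to 13 for Tagln, 22 for Myl9 and 33 for Tpm2, too few to follow these genes further.

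**Figure D3:**
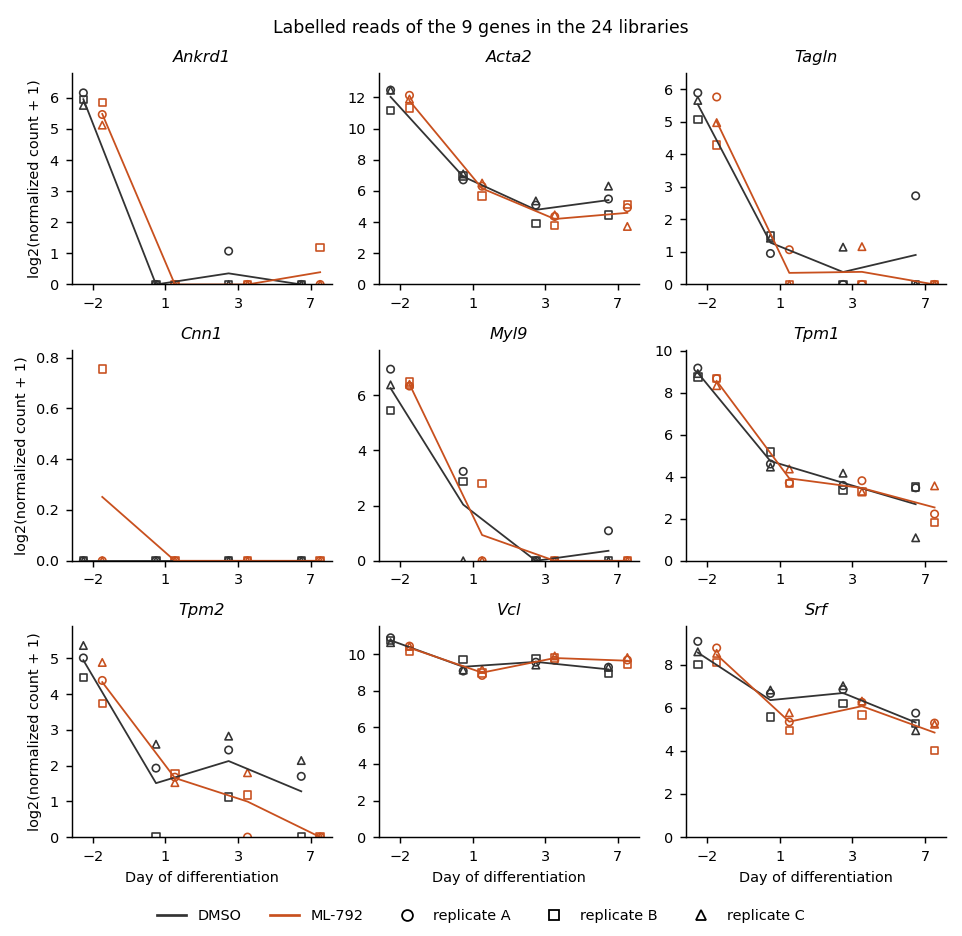
Labelled reads of the 9 genes in each of the 24 libraries, as log2 of the normalized count plus 1 (vertical axes, which differ between panels) by day (horizontal axes), with the same symbols and scaling as for total reads. Acta2, Tpm1, Srf and Vcl had labelled reads in every library, while Ankrd1 had 2 in all over the 18 libraries after day −2.

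After day 1 the genes separated. Acta2 and Myl9 fell again from day 1 to day 3, by 2.46 (SE 0.34, adjusted p = 4.39e-05) and 2.26 (SE 0.33, adjusted p = 9.61e-05) on the log2 scale in DMSO, 2 of 8 genes lower beside 9.63% of all entries. Acta2 had 431, 211 and 539 normalized counts and Myl9 had 45.2, 17.6 and 15.8 at day 3, all below every day 1 library. In ML-792 the same genes fell by 2.01 (SE 0.29) and 1.92 (SE 0.27), 2 of 8 beside 10.5%, and Vcl rose by 0.92 (SE 0.16, adjusted p = 0.000641), 1 of 8 beside 10.3% of entries higher. These 3 calls in ML-792 were lost without replicate A, with adjusted p of 0.0189 for Acta2, 0.0158 for Myl9 and 0.0312 for Vcl, and that of Vcl also without replicate C (0.0127). In labelled reads Acta2 was the gene called lower at this step in both treatments, by 2.05 in DMSO (SE 0.41) and by 2.02 in ML-792 (SE 0.30), beside 1.61% and 1.35% of entries. The DMSO call on labelled Acta2 was lost without replicate A (adjusted p = 0.0338). Set against day −2, 6 of 7 genes were lower at day 3 in DMSO and 6 of 8 in ML-792 in total reads, beside 16.3% and 17.6% of all entries. In labelled reads 7 of 7 and 7 of 8 were, beside 30.8% and 32%. As at day 1, the labelled tests of Tagln, Myl9, Tpm2 and, in ML-792, Ankrd1 could only come out lower. The total reads of Srf and, in ML-792, of Vcl did not pass, with log2 changes of −0.30 (Srf, DMSO), −0.55 (Srf, ML-792) and −0.37 (Vcl, ML-792). With the replicate block the adjusted p in ML-792 was 3.64e-05 for Srf and 0.00151 for Vcl, against 0.0784 and 0.0748 without it.

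Smaller changes between days 1 and 3 depended on the replicate block. In DMSO Tpm1 was lower by 0.56 and Tpm2 by 0.63 at day 3 on the log2 scale, with adjusted p of 0.0414 and 0.0736, and of 0.00263 and 0.00328 with the block. In ML-792 the block gave adjusted p of 0.00237 for Tpm1, 0.00155 for Tpm2 and 0.00541 for Tagln, all with log2 changes below 0, and 0.00012 for Srf, which was higher by 0.54. Without the block these were 0.0664, 0.0674, 0.0418 and 0.118.

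From day 3 to day 7 Srf was the gene called in DMSO, beside 3.77% of all entries lower. It had 2754, 1890 and 2283 normalized counts at day 3 and 1072, 976 and 895 at day 7, with no overlap, a log2 change of −1.23 (SE 0.22, adjusted p = 0.00121). The call was lost without replicate A (0.039) and without replicate C (0.0473). In ML-792 Tpm1 fell by 0.79 (SE 0.15, adjusted p = 0.00218) and Tpm2 by 1.27 (SE 0.28, adjusted p = 0.00621), 2 of 8 beside 4.7%. Both calls were lost without replicate A (0.042 and 0.152) and without replicate C (0.0693 and 0.0483). Srf in ML-792 went from 2207, 1472 and 2262 to 1302, 765 and 1100, a log2 change of −0.91 with adjusted p of 0.0193, and of 4.89e-08 with the block. In labelled reads 0 of 7 genes in DMSO and 0 of 8 in ML-792 were called lower from day 3 to day 7 by edgeR and by DESeq2, beside 0.0756% and 0.274% of all entries, with 1 gene at an unadjusted p under 0.05 in each.

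Acta2 moved the other way at this step. It had 431, 211 and 539 normalized counts at day 3 and 736, 729 and 1114 at day 7 in DMSO, and 393, 335 and 496 against 798, 600 and 804 in ML-792. No library at day 3 reached the lowest at day 7 in either treatment. The log2 change was 1.13 (SE 0.32, adjusted p = 0.0269) in DMSO and 0.85 (SE 0.28, adjusted p = 0.0482) in ML-792, both short of the threshold of 0.01. With the replicate block the adjusted p was 0.000145 in DMSO and 1.41e-06 in ML-792. The summed smooth muscle markers were also higher at day 7 than at day 3, at 594–843 against 194–291 in DMSO and 302–376 against 126–294 in ML-792. Within the sum Des, Myh11 and, in DMSO, Lmod1 had higher means at day 7. Des had 359 against 45.5 in DMSO, and Myh11 164 against 33.2. Actg2, the other actin of the list, was lower, at 15.4 against 29.2 in DMSO and 7.72 against 21.6 in ML-792, Smtn was at 136 against 142 and at 98.9 against 170, and Myocd was at 0 at day 7 in both. Their part in the value of Acta2 was not tested.

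Over the whole course in DMSO, from day −2 to day 7, the log2 changes of total reads were −6.76 for Ankrd1, −6.37 for Myl9, −5.86 for Acta2, −5.41 for Tagln, −3.81 for Tpm1, −2.37 for Tpm2, −1.54 for Srf and −1.29 for Vcl. These are given with no test, since the choice of genes used this comparison, and 16.9% of all entries were lower in it. In ML-792 7 of 8 genes were lower at day 7 than at day −2 beside 17.3% of all entries. The genes were chosen with earlier results of these data known, so this count may not be independent of the choice. The changes ran from −6.03 for Acta2 (SE 0.34) and −5.92 for Myl9 (SE 0.29) to −1.46 for Srf (SE 0.25). Vcl had 3973, 3240 and 4035 normalized counts at day −2 and 2784, 2236 and 2589 at day 7 in ML-792, a log2 change of −0.56 (SE 0.16) with adjusted p of 0.0109, and of 1.27e-05 with the block. In labelled reads 8 of 8 genes were lower in ML-792 at day 7, beside 36.1% of all entries. Of these, Ankrd1, Tagln, Myl9 and Tpm2 passed the filter on low counts only through day −2 and could only come out lower. The labelled change of Vcl, −0.70, turned to 0.52 when labelled reads were scaled by their own totals, and its call was lost without replicate A (adjusted p = 0.0808) and without replicate C (0.031).

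Few of these genes differed between ML-792 and DMSO at a given day. At days −2, 1 and 3 none of them was called in total reads at an adjusted p under 0.1 in edgeR's quasi-likelihood test, beside 0%, 6.45% and 13% of all entries. The unadjusted p was under 0.05 for 0, 1 and 0 of the genes tested at those days, and DESeq2 called 0, 1 (Vcl, lower) and 0. With the block Acta2 (adjusted p = 0.0542, lower) and Vcl (0.0241, lower) were called at day 1, and Tpm1 (0.0922, higher) at day 3. The intervals leave room for changes of moderate size. At day 1 the log2 difference of ML-792 from DMSO was −0.40 for Acta2 (approximate 95% interval −1.03 to 0.23), −0.32 for Srf (−0.79 to 0.15) and 0.17 for Tpm1 (−0.16 to 0.50).

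At day 7 Tpm2 was called, 1 of 7 genes tested beside 9.74% of all entries, a count near that share. It had 250, 246 and 320 normalized counts in DMSO and 168, 137 and 152 in ML-792. Every ML-792 library was below every DMSO library, a log2 difference of −0.83 (SE 0.28, adjusted p = 0.0828). The call was lost without replicate A (0.352) and without replicate C (0.366). Tpm1 at day 7 had 515, 739 and 557 in DMSO and 549, 614 and 589 in ML-792, which overlapped, with a log2 difference of −0.05 (approximate 95% interval −0.38 to 0.29). Whether the tropomyosins differ from each other in their response was not tested.

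Vcl was the gene called for a course over the days that differed between the treatments. An F-test of the 3 day by treatment terms gave an adjusted p of 0.0272 in total reads. This was 1 of 7 genes tested beside 9.65% of all entries, a count near that share. ML-792 libraries had 1366, 1445 and 1790 normalized counts at day 1 against 1764, 2665 and 2003 in DMSO, and 2784, 2236 and 2589 at day 7 against 1905, 1773 and 1995. So Vcl tended lower in ML-792 at day 1, where 1 ML-792 library lay above the lowest DMSO library, and higher at day 7, where the groups did not overlap. The log2 difference was −0.48 at day 1 (SE 0.16, adjusted p = 0.105) and 0.42 at day 7 (SE 0.16, adjusted p = 0.137). With the replicate block the adjusted p was 0.0241 and 0.0446. The call by the F-test was lost without replicate A (0.496) and without replicate C (0.212). With the block, Tpm2 had an adjusted p of 0.00345 in the same test against 0.185 without it.

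In labelled reads none of the genes was called for ML-792 against DMSO at any of the 4 days by edgeR, beside 0%, 0.822%, 0.935% and 0.869% of all entries, nor for the day by treatment terms, beside 0.236%. At an unadjusted p under 0.05 there were 0, 2, 0 and 3 genes at days −2, 1, 3 and 7, and DESeq2 called 0 at each. The share of all entries at that unadjusted p is not given, here or for the other unadjusted counts. Srf was 1 of the 2 genes at day 1, with 107, 52 and 133 labelled reads in DMSO and 36, 25 and 57 in ML-792. The groups overlapped, and the log2 difference was −1.07 (SE 0.37, approximate 95% interval −1.79 to −0.34, adjusted p = 0.203).

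The labelled share, labelled reads as a percent of a gene's total reads, gives a view of how much of the RNA was made during the labelling. At day −2 in DMSO, with the 3 libraries pooled, it was 16.6% for Ankrd1, 13.8% for Srf, 11.9% for Tagln, 9.18% for Acta2, 5.90% for Tpm1, 3.96% for Myl9 and 2.20% for Tpm2. The median of all tested entries was 3.10%. The share also depends on how many T bases the counted region holds, which was not corrected for here. For Srf it was 13.1% to 14.4% at day −2 and 3.11% to 6.27% at day 1 in DMSO, and 2.73% to 3.40% at day 1 in ML-792. For Tpm1 it was 4.46% to 7.10% at day −2 and 1.97% to 2.41% at day 1 in DMSO. Acta2 kept more of its share, at 7.52% to 10.1% and 5.05% to 6.88%. The share of whole libraries fell over the same days, as given above.

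**Figure D4:**
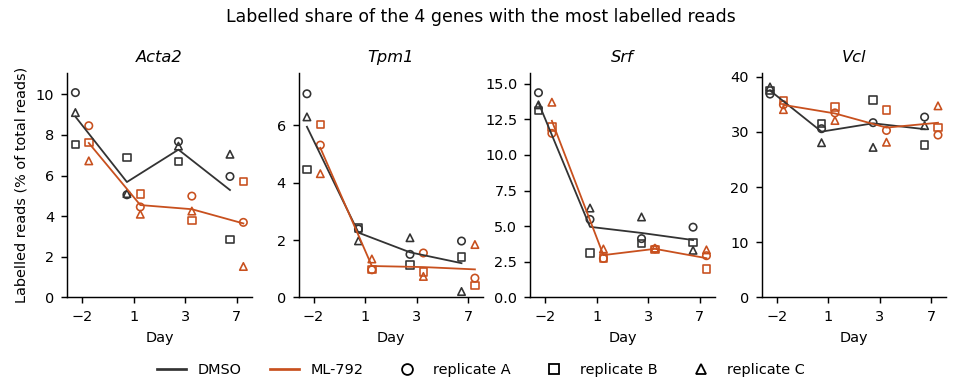
Labelled reads as a percent of total reads (vertical axes, starting at 0) by day (horizontal axes) in each library for Acta2, Tpm1, Srf and Vcl, with points shaped by replicate letter and lines through the means of 3 libraries. Srf drops from at least 11.5% at day −2 to at most 6.27% later, while Vcl stays between 27.2% and 38.1% throughout.

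Vcl stood apart. Its labelled share was 37.4% at day −2 in DMSO, with the libraries pooled, and only 17 of the 10589 tested entries had a higher one. Over all 24 libraries it ranged from 27.2% to 38.1%, while the share of whole libraries fell after day −2. The reason for the high share was not tested, nor whether all labelled reads of Vcl mark RNA made during the labelling. Its changes in labelled reads are therefore not to be read as changes in new RNA alone.

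**Figure D5:**
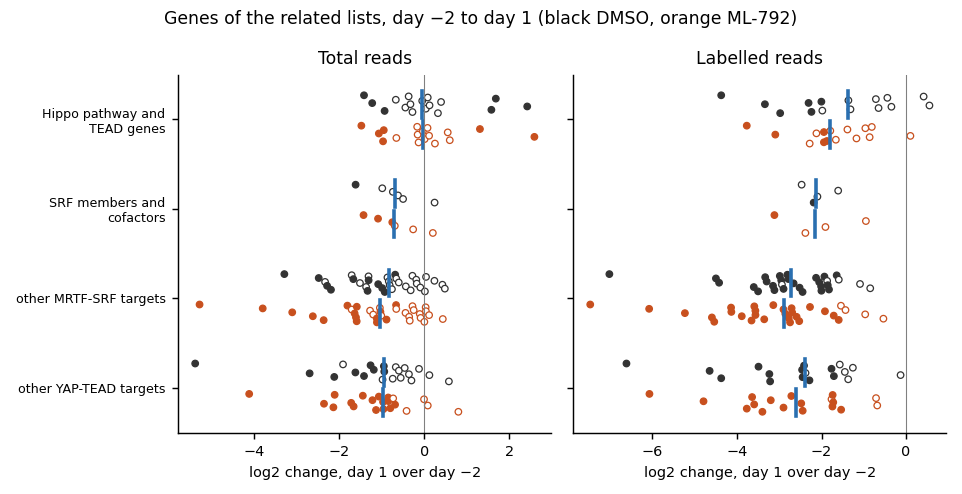
Log2 change from day −2 to day 1 (horizontal axes) of the genes in 4 related lists, in total reads (left) and labelled reads (right). Each point is a gene, filled where its adjusted p was under 0.01, black for DMSO and orange for ML-792, and the blue bar is the median of the list; most labelled MRTF-SRF and YAP-TEAD targets are filled and below 0.

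Other genes of the same pathways were compared over day −2 to day 1. Of 33 other MRTF-SRF targets, for actins, myosins, filamin and adhesion proteins, 11 were lower and 0 higher in total reads of DMSO cells, beside 7.81% and 5.94% of all entries, with a median log2 change of −0.83, against 0.02 for all entries. Actg2, Lmod1 and Myh11 are also among the smooth muscle markers. The largest changes among the 11 were those of Actg2, smooth muscle gamma-actin (−3.29), Cnn2, calponin 2 (−2.48), and Fhl2, a LIM-domain partner of SRF (−2.29). In ML-792 15 of 33 were lower, beside 10.7% of all entries. In labelled reads 25 of 30 were lower in DMSO, beside 17.9%, with a median of −2.72 against −1.23 for all entries, and 26 of 30 in ML-792, beside 24.2%. In this and the other lists, genes that passed the filter on low counts only through day −2 could only come out lower. Such genes were not counted apart, so the list counts are not independent of the filter. The genes with the largest changes in labelled DMSO reads were Lmod1 (56 reads at day −2 and 0 at day 1), Actg2 (−4.50) and Filip1l (−4.42). The labelled calls on Actg2 and Lmod1 were lost without replicate C (adjusted p = 0.0123 and 0.0222), and that on Lmod1 also without replicate A (0.0271).

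Of 21 other YAP-TEAD targets tested, 9 were lower and 0 higher in total reads of DMSO cells (median −0.94), beside 7.81% and 5.94% of all entries, and 16 of 21 were lower in ML-792, beside 10.7%. Ctgf, the matricellular protein used as a standard YAP readout, changed the most, from a mean of 2936 to 70.0 normalized counts in DMSO (log2 change −5.39), followed by Nuak2 (−2.70) and Ajuba (−2.12). In labelled reads 12 of 18 were lower in DMSO (median −2.40), beside 17.9% of all entries, led by Ctgf (−6.62), Nuak2 (−4.65) and Lats2 (−4.37), and 15 of 18 in ML-792, beside 24.2%. The total calls on Nuak2 and Ajuba were lost without replicate A (adjusted p = 0.0142 and 0.0395), and that on Ajuba also without replicate C (0.0101). Both lists lost calls in total DMSO reads without replicate A, to 1 YAP-TEAD and 5 MRTF-SRF targets, and without replicate C, to 4 and 6. Without replicate B they had 13 and 18, and with the replicate block 11 and 20. In ML-792 the YAP-TEAD count was 7 without replicate A and 9 without replicate C, and in labelled DMSO reads leaving out replicate A gave 7 YAP-TEAD and 14 MRTF-SRF targets.

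The regulators were called in both directions in total reads. Of 17 genes of the Hippo pathway and TEAD family, 3 were lower and 3 higher at day 1 in DMSO, beside 7.81% and 5.94% of all entries, the latter genes being Tead4 (2.42), Vgll4 (1.68), a TEAD cofactor that opposes YAP, and Sav1 (1.58), a scaffold of the Hippo kinases. In labelled reads 6 of 15 were lower, beside 17.9% of all entries, led by Lats2 (−4.37), which is also in the YAP-TEAD list, Vgll3 (−3.34) and Stk3 (−2.98). The median of the 15 was −1.36, near the −1.23 of all entries. Of 6 SRF members and cofactors tested, Elk3 alone was called in total DMSO reads (−1.62, with 3 called under the block), and Srf alone of 4 in labelled reads. Without replicate A 1 Hippo pathway or TEAD gene was called higher and 0 lower in total DMSO reads, and 2 lower in labelled reads. Without that replicate the adjusted p was 0.0195 for Vgll4, 0.0285 for Sav1, 0.0197 for Elk3 and 0.0697 for labelled Stk3, and without replicate C it was 0.0264 for Sav1, 0.0132 for Elk3 and 0.013 for Stk3. Leaving out replicate B gave 0.0302 for Stk3.

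For ML-792 against DMSO in total reads, 5 of the 21 YAP-TEAD targets were lower at day 1, 4 lower and 5 higher at day 3, and 5 higher at day 7. Of all entries 3.31%, 6.46% and 4.47% were lower at those days and 3.14%, 6.57% and 5.27% higher. Of the 33 MRTF-SRF targets 4 were lower and 1 higher at day 1, 3 and 1 at day 3, and 1 each way at day 7. Zyx, an adhesion protein and MRTF-SRF target, was lower at day 7 by 1.46 on the log2 scale in total reads (adjusted p = 2.09e-06). Larger changes in total reads were called for Myh11 (−4.28) and Fhl1 (−2.28) at day 3 and for Foxf2 (1.84) at day 7. Myl12b was the MRTF-SRF target called higher at day 7 (0.77). Lats2, the Hippo kinase, was higher at day 3 by 0.98 (adjusted p = 3.96e-05), and Mkl2, which encodes MRTF-B, was lower at day 3 by 0.86 (adjusted p = 0.00134). In labelled reads at day 1, F3, which encodes tissue factor, was lower by 1.60 (adjusted p = 0.00853) and Fhl2 by 1.55 (adjusted p = 0.0559). The calls on Zyx, Lats2, Myh11, Fhl1, Foxf2 and Myl12b given here held without each replicate, and that on Mkl2 was lost without replicate C (0.143). The call on F3 was lost without replicate A (0.231) and without replicate C (0.299), and that on Fhl2 without any 1 of A, B and C (0.186, 0.434 and 0.211).

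Tpm1 and Tpm2 have several 3′UTR entries, 21 and 3. Entries with a common start overlap and share reads, while others of Tpm1 lie apart. All 15 Tpm1 entries with a mean of at least 100 total reads were called lower at day 1 in total reads of DMSO cells, from −2.06 to −4.00 on the log2 scale. The 4 entries that start at chr9:67027890 or chr9:67027892 lay at −2.06 to −2.08 and the longest entry, given above, at −2.86. Both Tpm2 entries tested were lower, with log2 changes of −1.58 and −1.60.

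The genes whose total reads followed Ankrd1 most closely over the 24 libraries, among 9248 genes and by Pearson's r of log2 values, were Pdgfrb (0.954), Plxna1 (0.953), Cdc42ep3 (0.946), Rnf213 (0.945) and Mnt (0.945). For Acta2 they were Irf9 (0.985), Lbh (0.981), Runx1t1 (0.981), Ddx58 (0.979) and Tgfb3 (0.979). The points share the contrast of day −2 with the later days, and the 5 genes ranked first by Spearman's rho held none of these in either case.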

How the data were processed

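Labelled (SLAMseq) and total (QuantSeq) reads were counted in the same 24 libraries. The deposited values were raw counts per RefSeq 3′UTR entry, made by the authors with bcl2fastq 2.17.1.14, DimerRemover and SlamDunk on mm10, with replicates not pooled. A read counted as labelled from 1 T-to-C conversion on. Another 6 library columns of each matched no sample and were left out.

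Groups came from the sample labels. The 9 genes and the gene lists were chosen with earlier results of these data known. Counts were tested with edgeR 4.0.16 (robust quasi-likelihood, Benjamini-Hochberg adjustment over all entries) in R 4.3.3 with limma 3.58.1. TMM factors and library sizes of the total counts also scaled labelled counts. filterByExpr (minimum count 10, minimum total 15) kept 26563 total and 10589 labelled entries. Days were compared within each treatment over its 12 libraries at an adjusted p of 0.01. ML-792 was compared with DMSO, and the day by treatment terms were tested, over all 24 libraries at 0.1. Approximate 95% intervals are the log2 change plus or minus 1.96 SE. Floors and shares cover counting error only, since no molecular identifiers are named in the sources used here. Of the gene lists, the 3 called genes with the largest change per list and comparison were named or, for ML-792 against DMSO, a few of them. The single markers given were singled out after their values were seen. The 5 genes most like Ankrd1 or Acta2 came from genes with a mean normalized count of at least 100, with a prior count of 2. Promoters were RefSeq's (GRCm38.p6). The scripts were tested on simulated data. Figures and motif searches used Python 3.11.15, matplotlib 3.10.9, pandas 2.3.3 and numpy 2.4.6. Alternatives were DESeq2 1.42.0, other filters (at least 1 or 10 reads), 1 entry per symbol, the replicate letter as a block, other libraries in the fit, each letter left out, labelled reads scaled by themselves, a prior count of 0.5 and Spearman's rho.

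Whether same-lettered libraries deviated together was checked by the correlation of their deviations from group means. In total reads it ran from −0.02 to 0.52, and every pair was above 0.1 in 11 of 14 comparisons. In labelled reads it ran from 0.00257 to 0.188, and all pairs were above 0.1 in 0 of 14. The block is therefore given beside total reads and, for the other comparisons, only among the alternatives.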

Additional observations from a re-analysis of the deposited data

Results flagged for a closer look

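The course of Vcl over the days was called as different between ML-792 and DMSO by the test of the 3 day by treatment terms in total reads (adjusted p = 0.0272, edgeR's quasi-likelihood test). It was 1 of 7 genes tested beside 9.65% of all entries, a count near that share. The log2 difference of ML-792 from DMSO for Vcl was −0.48 at day 1 and 0.42 at day 7, neither of which passed the threshold on its own without the replicate block. With the block the adjusted p was 0.0241 at day 1 and 0.0446 at day 7. For the 3 day by treatment terms the adjusted p was 0.496 without replicate A and 0.212 without replicate C.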

How the results depend on the processing

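Counts of called genes are given as the alternative value with the reported value after it in parentheses, and the cause of a change was not tested. The shares of all entries called under the alternatives are not given. Whether a change in a count is particular to these genes therefore cannot be read from it. Of the counts, 386 values under an alternative stayed within 1.5 times the reported one and 81 did not. Of the single-gene results, 1350 kept their direction and side of the threshold, 152 lost the call, 10 gained one and 2 reversed. Without entries of a labelled share over 30% (18 of 10589, of the genes Vcl alone), an alternative chosen after seeing the data, 59 of 59 single-gene results were unchanged in direction and call.

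Changes below are from day −2 to day 1 where no days are named. With DESeq2, in total reads the number lower in DMSO was 18 (11) for MRTF-SRF targets and 4 (1) for SRF members and cofactors, Hippo and TEAD genes higher in ML-792 were 4 (2), and the actin-linked genes called for ML-792 against DMSO were 1 (0) at day 1 and 2 (1) at day 7. In labelled reads SRF members and cofactors lower in DMSO were 2 (1). With no filter beyond 1 read, total reads gave 17 (11) MRTF-SRF targets and 2 (1) SRF members and cofactors lower in DMSO, 4 (2) actin-linked genes lower from day 1 to day 3 in ML-792 and 2 (1) with day by treatment terms. With other libraries in the fit, SRF members and cofactors lower in total DMSO reads were 2 (1), and actin-linked genes lower in labelled reads from day 1 to day 3 in ML-792 were 0 (1). With 1 entry per symbol, 1 (0) gene, Vcl, was called for ML-792 against DMSO in total reads at day 1.

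With labelled reads scaled by themselves, 4 (7) actin-linked genes were lower in DMSO at day 1 and 4 (7) at day 3, each against day −2, and 1 (0), Vcl, was called for ML-792 at day 7. The lists had 13 (25) MRTF-SRF targets, 6 (12) YAP-TEAD targets, 2 (6) Hippo and TEAD genes and 0 (1) SRF members and cofactors lower in DMSO, and 8 (15) YAP-TEAD targets and 2 (5) Hippo and TEAD genes in ML-792. The labelled change of Vcl reversed from day −2 to day 3 in DMSO, to 0.020 (−1.18), and to day 7 in ML-792, to 0.52 (−0.70).

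Under the replicate block, total reads gave 20 (11) MRTF-SRF targets and 3 (1) SRF members and cofactors lower in DMSO. Actin-linked genes lower from day 1 to day 3 were 4 (2) in DMSO and 5 (2) in ML-792, with 2 (1) higher in ML-792. For ML-792 against DMSO the block gave 2 (0) at day 1, 1 (0) at day 3 and 2 (1) at day 7, and 2 (1) for the day by treatment terms. In labelled reads, where same-lettered libraries deviated together less, the block gave 2 (1) SRF members and cofactors in DMSO and 1 (0), Srf, for ML-792 at day 1. From day 3 to day 7 it gave 1 (0) actin-linked gene, Srf, lower in DMSO and 1 (0) in ML-792. The block left 34 of 47 counts within 1.5 times the reported one and lost none of the single-gene calls. Of 212 results of the actin-linked genes it added 23 calls, 18 in total and 5 in labelled reads. The latter were Srf as above and Vcl in ML-792 at day 3 against day −2 and day 1. The calls it added among all entries are not given beside these.

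Leaving out each replicate gave these ranges. Hippo and TEAD genes higher in total reads were 1 to 3 (3) in DMSO and 1 to 3 (2) in ML-792. Those lower were 0 to 3 (3) and 2 to 4 (4) in total reads, and 2 to 4 (6) and 3 to 4 (5) in labelled reads. SRF members and cofactors lower were 0 to 2 (1) in DMSO and 0 to 4 (3) in ML-792 in total reads, the 0 in both without replicate A and without replicate C, and 1 to 2 (1) in labelled DMSO reads. MRTF-SRF targets lower in DMSO were 5 to 18 (11) in total and 14 to 27 (25) in labelled reads. YAP-TEAD targets lower were 1 to 13 (9) in DMSO and 7 to 14 (16) in ML-792 in total reads, and 7 to 12 (12) and 9 to 13 (15) in labelled reads. Actin-linked genes lower in total reads of ML-792 were 5 to 8 (8) at day 1, 0 to 3 (2) from day 1 to day 3 with 0 to 2 (1) higher, and 0 to 3 (2) from day 3 to day 7, where DMSO had 0 to 1 (1). In labelled DMSO reads they were 4 to 7 (7) from day −2 to day 3, 0 to 1 (1) from day 1 to day 3 and 0 to 1 (0) from day 3 to day 7. For ML-792 against DMSO they were 0 to 3 (1) in total reads at day 7, 0 to 1 (0) in labelled reads at day 1 and 0 to 1 (0) at day 7, and 0 to 2 (1) for the day by treatment terms in total reads.

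By Spearman's rho, 0 (5) of the genes most like Ankrd1 and 0 (5) of those most like Acta2 stayed among the closest 5, and with a prior count of 0.5 those of Ankrd1 were 3 (5). Cnn1 and the labelled reads of Tagln, Myl9 and Tpm2 after day −2 were too few for changes to be followed.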
